A study of Mus musculus and Mus spretus with 18 samples.

Results

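The comparison described here is the change in gene expression between birth and day 14 in the brain of Mus musculus. It was made from every musculus array of those ages, 6 of the 18 arrays of the series, and from all 12346 rows of the deposited value table. The day 14 group is the 3 musculus arrays titled as 14 days old, and the day 0 group the 3 titled as 0 days old. The mice were males of the strain WSB/EiJ, bred in a research facility, and whole brains were taken without the olfactory bulb. Newborns were dissected within their first postnatal day. The series also holds musculus brains at 56 days and Mus spretus brains of the strain SPRET/EiJ at days 0, 14 and 56, with 3 arrays in each group. The species are called musculus and spretus from here on. Each array is labelled as the brain of a single individual, so a gene's p-value weighs its change against the spread between animals. That spread was estimated over all 6 species and age groups together, not from the musculus animals compared alone.

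The first 2 postnatal weeks of a mouse are a time of rapid brain growth. Most neurons of the forebrain have been born by then, while granule neurons of the cerebellum are still being produced, astrocytes multiply, and oligodendrocytes begin to wrap axons in myelin. Axons branch and form synapses in large numbers, and channel and receptor subunits of the newborn give way to adult ones. In whole brain, a gene can move because cells of a type became more or less numerous or because each cell holds more or less of its RNA, and these cannot be told apart here.

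The rows are Ensembl gene IDs, and neither the deposited files nor the reference tables used here pair them with symbols: 0 of the 12346 IDs had a match. The 40 gene lists of cell types and pathways and the 16 lists of cell type markers drawn up for this comparison were therefore not applied, and the labelled tissue was not checked against its markers. Genes are described below as groups set by the direction and size of their change, their signal and their behaviour in other arrays, with 2 IDs in each direction as examples.

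Values in the 6 arrays ran from 2.97 to 13.76 on the log2 scale, with array medians of 6.53 to 6.55 at day 14 and 6.53 to 6.56 at day 0. Across genes, arrays of 1 age correlated with Pearson's r of 0.992 to 0.994 at day 14 and 0.993 to 0.994 at day 0. The median SD of a gene between the 3 arrays was 0.12 at either age. An SD over 0.5 was found for 105 genes at day 14 and for 60 at day 0. At day 14, replicate 3 was the array farthest from the other two in 76 of the 105 genes, and it lay below them in 59. At day 0, replicate 1 was the farthest in 38 of the 60 genes, above the others in 20 and below them in 18.

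Expression changed in both directions on a broad scale. With the adjusted p under 0.05 that defines a call here, 41.4% of genes changed between the ages. A rise was called for 2416 genes, or 19.6%, and a fall for 2694 genes, or 21.8% (limma on the log2 values, two-sided, with Benjamini-Hochberg adjustment over all 12346 genes). The median change was 0.58 among risen genes, -0.54 among fallen genes and 0.00 (-0.0018) over all genes. Most calls were of modest size, and 2726 of them, or 53.3%, were under 1.5-fold.

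The larger the change, the more rises outnumbered falls. Past 1.5-fold there were 1203 rises and 1181 falls. At least 2-fold changes were called for 521 rising and 425 falling genes, together 7.66% of all genes. Rises of at least 4-fold numbered 99 and falls 47, rises of at least 8-fold 30 and falls 10, and rises of at least 16-fold 11 and falls 3. The ratio of rising to falling genes was 1.02 at the 1.5-fold limit, 2.11 at 4-fold and 3.00 at 8-fold. The middle of the distribution leaned the other way: the lower and upper quartiles of the log2 change were -0.24 and 0.21, while the 1st and 99th percentiles were -1.60 and 1.85.

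**Figure D1:**
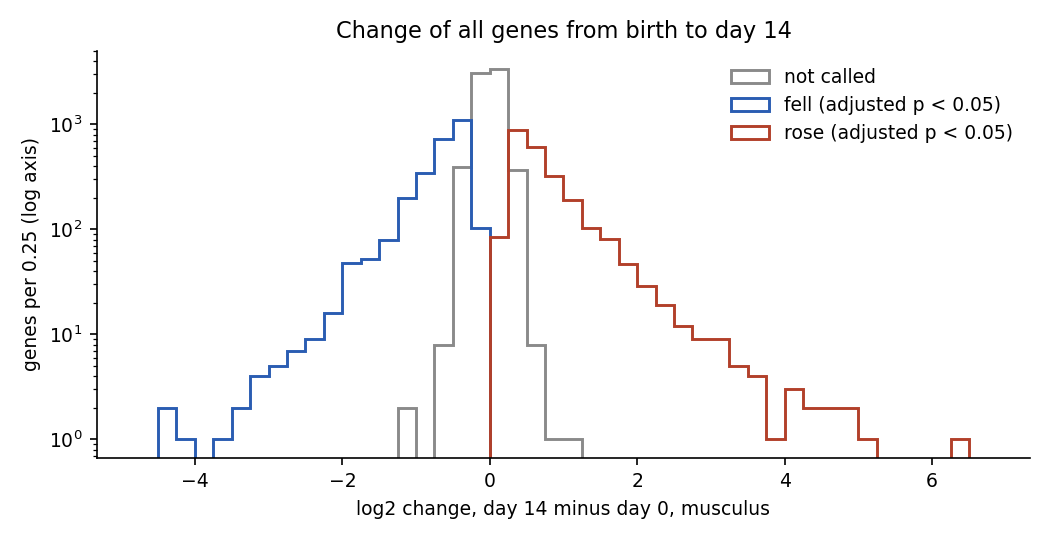
Number of genes (vertical log axis, per 0.25 of log2 change) against the log2 change from day 0 to day 14 in musculus (horizontal axis), drawn apart for genes that rose, genes that fell and genes not called. The rising tail is longer, with 30 genes at 3 or more against 10 genes at -3 or less.

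The examples given here are the largest called changes among genes without overlap between the ages, so a clear separation was set by the rule. A gene with overlap, described at the end, had a log2 change of -4.27, a larger fall than the second falling example. ENSMUSG00000027375 had log2 values of 11.01, 11.56 and 11.43 in the day 14 arrays, against 4.77, 4.97 and 5.22 in the day 0 arrays. The ages were apart by 5.79 at their nearest, and the day 0 values lay just above 4.71, the limit of the dimmest of 4 equal signal classes at that age. Its log2 change was 6.35 ± 0.15 (SE; limma, adjusted p = 1.85e-14), which is 81.4-fold. ENSMUSG00000031425 had values of 13.21, 13.25 and 13.26 at day 14, against 7.55, 7.87 and 8.76 at day 0. Its day 14 arrays were nearly equal, while day 0 replicate 1 stood above the other newborns. The log2 change was 5.18 ± 0.20 (limma, adjusted p = 1.96e-12), or 36.3-fold, and the day 14 values were close to 13.76, the top value of the 6 arrays. Whether signal was compressed there was not tested, so the size of this change and of its difference between the species is given as measured.

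Among falling genes, ENSMUSG00000029510 had values of 3.65, 4.03 and 4.14 at day 14, against 8.34, 8.42 and 8.46 at day 0. All 3 day 14 values were below 4.70, the limit of the dimmest class at day 14, so the size of the fall is not exact. It fell by 4.47 ± 0.22 (SE; limma, adjusted p = 3.17e-11), or 22.1-fold. ENSMUSG00000025789 had values of 6.11, 6.13 and 6.39 at day 14, against 10.32, 10.41 and 10.41 at day 0. Both of its levels were clear of the dimmest class. It fell by 4.17 ± 0.14 (limma, adjusted p = 5.40e-13), or 18.02-fold.

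**Figure D2:**
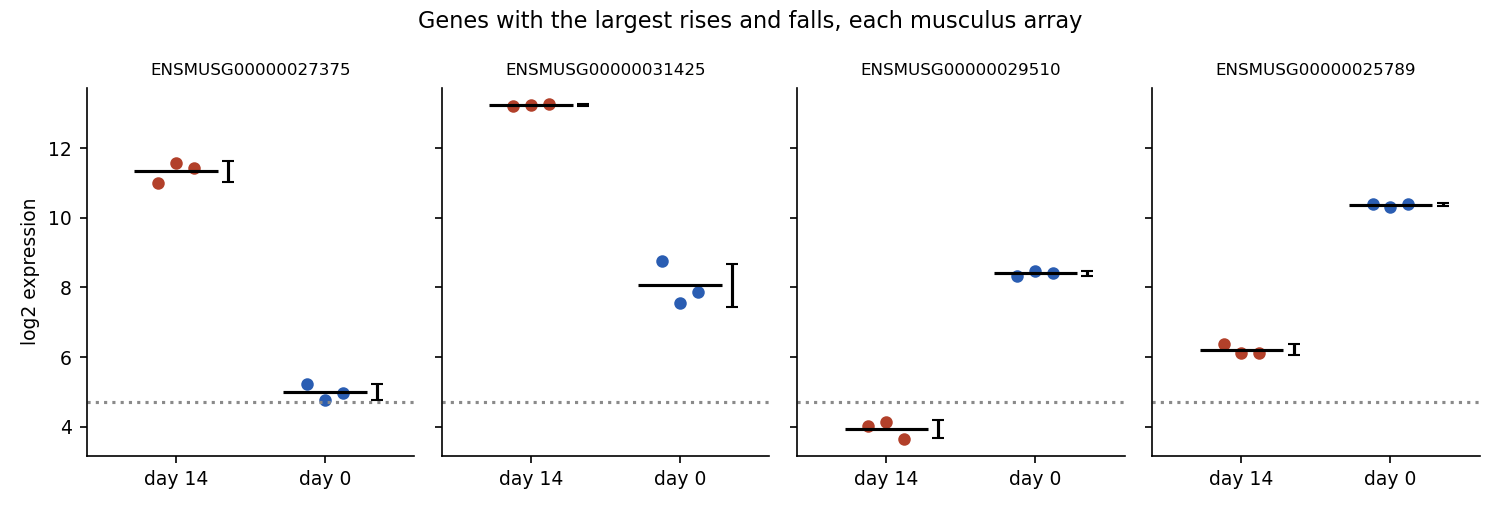
Log2 expression (vertical axis) of the genes with the largest called rises and falls without overlap in each musculus array at day 14 and day 0. Points are arrays, horizontal lines means, vertical bars the SD (n = 3) and the dotted line the limit of the dimmest signal class at day 0, 4.71; in each gene the ages do not overlap.

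In most called genes the arrays of the ages did not overlap. Over all genes, 49.0% had no overlap between the 3 values of each age. Higher at day 14 without overlap were 2901 genes, of which 2330 were called as risen, and lower without overlap were 3153, of which 2604 were called as fallen. A gap of at least 2-fold between the nearest arrays of the ages was seen in 293 rising and 212 falling genes. Of the genes called with at least 2-fold changes, 519 of 521 rising and 423 of 425 falling genes had no overlap. The call, the size limit and the overlap come from the same arrays. A large called change leaves little room for overlap, so these counts describe the calls and are no separate support. The other four are described at the end.

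Genes without a call were in the main held to small changes of signal. Of 7236 such genes, 6583, or 91.0%, had a 95% interval of the change that lay within 1.5-fold in either direction, and 7210 had one within 2-fold. A change of 2-fold lay within the interval of 26 uncalled genes only. These intervals bound the change of signal and not that of RNA. Many uncalled genes were dim: of the 3087 genes with the lowest mean signal over both ages, below 4.72, 9.36% were called. Whether the RNA of such genes was detected was not tested, so they are not shown to be stable. An unadjusted p under 0.05 was found for 5844 genes.

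Calls were far more frequent among genes with a bright signal. Signal depends on the probes as well as on the RNA, so genes were put into 4 signal classes of equal size to show where changes were called and not to rank transcripts. Classes were set by the mean over both ages, so a gene dim at 1 age and changed by much at the other moves up a class, and the low share of 2-fold changes in the dimmest class is in part set by the split. In the dimmest class, below 4.72, 5.09% of 3087 genes rose and 4.28% fell. In the next class 16.5% rose and 18.1% fell, and in the third 814 genes rose and 895 of 3086 fell. In the brightest class, above 8.24, 30.3% rose and 35.9% fell. Rises of at least 2-fold followed the same order, with 0.227%, 3.01%, 6.61% and 7.03% of the genes from the dimmest class to the brightest. Falls of that size levelled off, at 0.227%, 3.89%, 4.89% and 4.76%. The median SD, pooled over the ages, was 0.15 in the dimmest class, 0.17 in the next, 0.13 in the third and 0.10 in the brightest, and the median absolute change was 0.10, 0.22, 0.33 and 0.37.

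**Figure D3:**
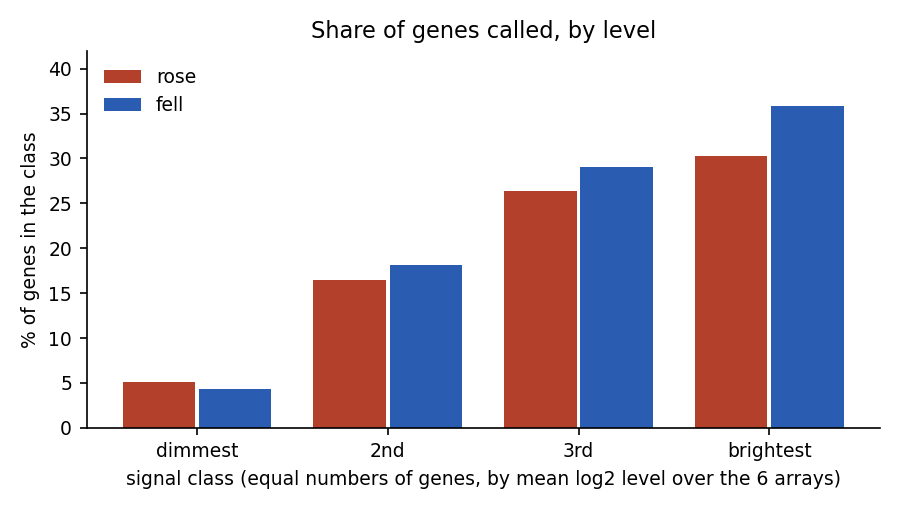
Share of genes that rose or fell from day 0 to day 14 in musculus (vertical axis, percent) in each signal class of genes, set by the mean log2 signal over the 6 arrays (horizontal axis). Both shares grow with signal, to 30.3% rising and 35.9% falling in the brightest class.

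Genes with large rises and genes with large falls differed in where they began and ended. The signal classes in this paragraph were set for each age by its own mean levels, not by the mean over both ages. The 521 genes that rose at least 2-fold had a median level of 8.65 at day 14 and 7.02 at day 0. Of these, 315 (60.5%) lay in the brightest class at day 14, against 117 (22.5%) at day 0. The 425 genes that fell at least 2-fold had a median level of 6.68 at day 14 and 8.19 at day 0, with 82 (19.3%) in the brightest class at day 14, against 209 (49.2%) at day 0. Few of either group came from or reached the dimmest class. Of the falling genes 37 were in it at day 14 and 0 at day 0, and of the rising genes 1 was in it at day 14 and 29 at day 0. For most of the 946 genes the change was thus measured on a signal above the dimmest class at both ages. The groups were set by this same contrast, so these levels are a description without a test.

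The day 56 arrays show where these genes stood in young adults. The 99 genes that rose at least 4-fold had median levels of 6.35 to 6.60 in the musculus arrays at day 0, 9.20 to 9.53 at day 14 and 9.32 to 9.42 at day 56. The 47 genes that fell at least 4-fold had medians of 8.58 to 8.95 at day 0, 6.02 to 6.36 at day 14 and 5.89 to 6.02 at day 56. The median level of either group at day 56 was therefore close to that at day 14. In spretus the medians of the rising group were 6.68 to 6.78, 9.33 to 9.37 and 9.36 to 9.46 at the 3 ages. Those of the falling group were 8.04 to 8.09, 5.99 to 6.24 and 5.92 to 6.03.

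**Figure D4:**
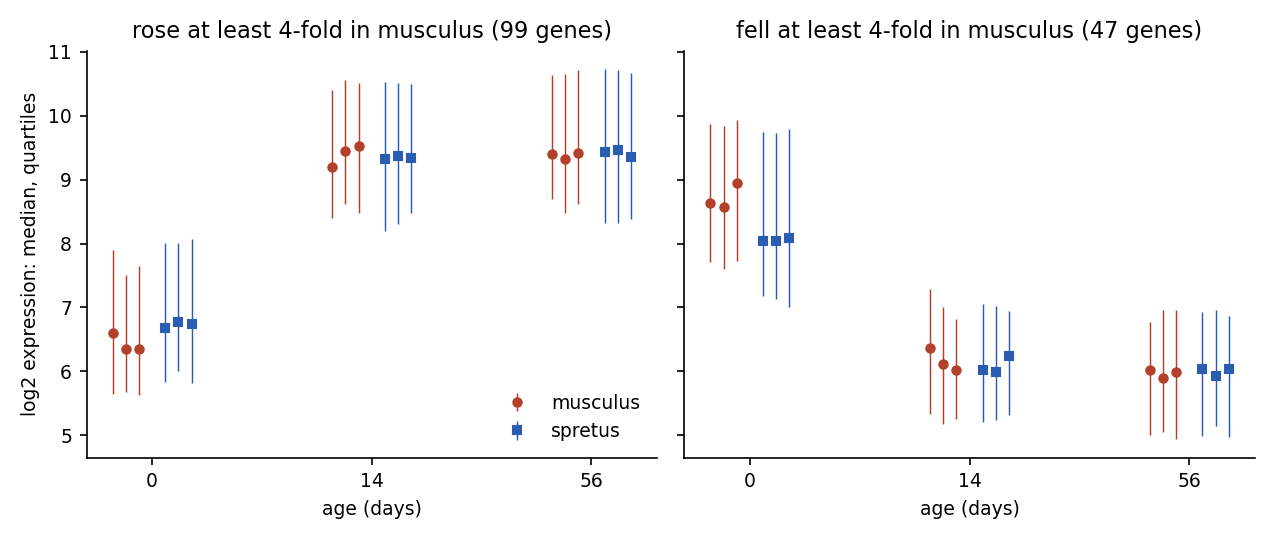
Median log2 level with quartiles over genes (vertical axis) in each array at days 0, 14 and 56 (horizontal axis), for genes chosen by a rise (99 genes) or a fall (47 genes) of at least 4-fold in musculus. The medians at day 56 lie near those at day 14 in musculus and in spretus. The spretus arrays entered the choice of genes only through the estimate of spread that all arrays share.

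The spretus arrays of days 14 and 0 were not part of the musculus comparison, beyond the estimate of spread that all 18 arrays share, so they give the same measure in other animals. Of all genes, 39.5% were called in spretus over the same step, in either direction. The shares given next for risen or fallen genes count a single direction, so that value is not their like background. Of the genes that rose at least 2-fold in musculus, 505 of 521 (96.9%) also rose in spretus, and of those that fell at least 2-fold, 411 of 425 (96.7%) also fell. No gene of these groups was called in the opposite direction. The share was lower where the musculus change was small: of the genes called with a rise under 1.5-fold 56.9% rose in spretus, and of those with a fall under 1.5-fold 62.7% fell. Of these groups 11 and 3 genes were called in the opposite direction in spretus, and 14.5% of the genes not called in musculus were called there.

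The size of the change was also close. The median changes in musculus and spretus were 3.56 and 3.33 for the 30 genes that rose at least 8-fold in musculus, 2.30 and 2.11 for the 69 that rose 4- to 8-fold, and 1.28 and 1.12 for the 422 that rose 2- to 4-fold. For falls they were -3.31 and -3.17 in the 10 genes past 8-fold, -2.36 and -1.90 in the 37 of 4- to 8-fold, and -1.25 and -1.13 in the 378 of 2- to 4-fold. Choosing genes on the musculus change favours large musculus values, so the same was done the other way round. The 436 genes that rose at least 2-fold in spretus changed by a median of 1.49 in musculus against 1.38 in spretus. For the 382 that fell at least 2-fold the medians were -1.25 and -1.27.

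**Figure D5:**
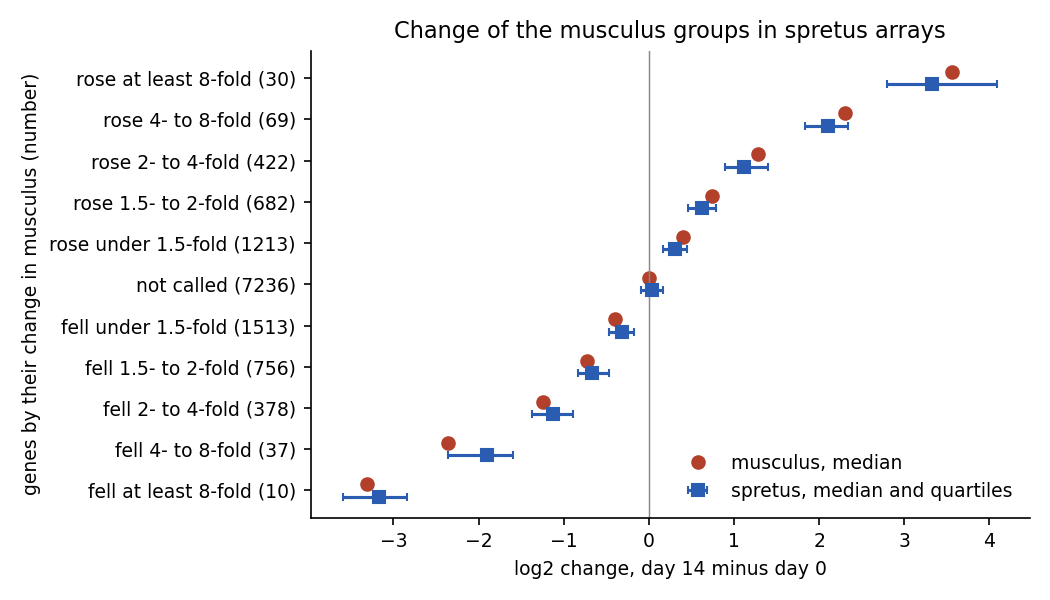
Median log2 change from day 0 to day 14 (horizontal axis) in musculus, and median with quartiles in spretus, for groups of genes set by their musculus change (vertical axis, number of genes in brackets). The spretus medians keep the sign and the order of the musculus groups, from 3.33 in the top group to -3.17 in the bottom one.

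Gene groups chosen in spretus were also read in the musculus arrays, which entered that choice only through the shared estimate of spread. The permutation test below cannot reach the threshold used here with 3 arrays against 3, so no conclusion is drawn from its p-values. The 436 genes that rose at least 2-fold in spretus had median levels of 8.59, 8.72 and 8.74 in the day 14 musculus arrays, against 6.97, 7.01 and 7.04 in the day 0 arrays. The mean of these medians was 8.68 ± 0.08 at day 14 and 7.01 ± 0.04 at day 0 (SD, n = 3; exact permutation, two-sided p = 0.1, which no 3 against 3 can go below). The 382 genes that fell at least 2-fold in spretus had medians of 6.71, 6.79 and 6.92 at day 14, against 8.14, 8.21 and 8.28 at day 0, with means of 6.81 ± 0.11 and 8.21 ± 0.07 (SD, n = 3; exact permutation p = 0.1). In musculus, 425 of the 436 genes (97.5%) were called as risen and 373 of the 382 (97.6%) as fallen, against 19.6% and 21.8% of all genes, and 0 were called in the opposite direction. Day 14 replicate 1 lay nearest to the newborns in both groups of genes, at 8.59 for the rising and 6.92 for the falling genes. Without it, 555 genes rose and 452 fell at least 2-fold in musculus.

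The difference in change between the species was tested for every gene. It was called for 137 genes, or 1.11%, and the count was 62 in a fit of the 12 arrays it compares. Among genes that rose at least 2-fold in musculus 31 of 521 were called, with the spretus change the smaller in 29, and among genes that fell at least 2-fold 21 of 425 were called, with the spretus change the smaller in all 21. These groups were chosen on a large musculus change, which favours that direction. In the groups chosen in spretus, which favours the other, 18 of 436 rising genes were called, with the spretus change the smaller in 10 and the musculus change in 8. Of the 382 falling genes 14 were called, with the spretus change the smaller in 6 and the musculus change in 8. Of the example genes, ENSMUSG00000029510 was called, with a spretus change above the musculus change by 1.64 ± 0.30 (SE; limma, adjusted p = 0.0142), or a smaller fall. The call was lost in the fit of those 12 arrays (limma, adjusted p = 0.0587). It had values of 3.57, 3.76 and 4.10 at day 14, against a mean of 6.64 ± 0.62 (SD, n = 3) at day 0, in spretus. The difference was -0.43 ± 0.22 for ENSMUSG00000027375 (adjusted p = 0.413, limma), -0.74 ± 0.28 for ENSMUSG00000031425 (adjusted p = 0.227, limma) and -0.07 ± 0.20 for ENSMUSG00000025789 (adjusted p = 0.923, limma), none of them past the threshold with all arrays. Without musculus day 0 replicate 1, the difference for ENSMUSG00000031425 was -1.08 and was called (limma, adjusted p = 0.0023).

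What genes with large musculus changes did after day 14 was read from the later step in spretus, from day 14 to day 56. That step shares no array with the musculus comparison, beyond the estimate of spread taken over all arrays. In that step 3.98% of all genes rose and 4.16% fell. Of the 521 genes that rose at least 2-fold by day 14 in musculus, 67 (12.9%) rose further in spretus and 49 (9.40%) fell. Of the 425 genes that fell at least 2-fold, 47 (11.1%) fell further and 14 (3.29%) rose. The median later change was 0.06 in the rising and -0.09 in the falling group, small beside medians of 1.38 and -1.28 for the musculus step before day 14.

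The authors deposited a list of probes that they masked. Of 1501 genes with 7 or more masked probes 63.2% were called from day 0 to day 14, of 7624 genes with 1 to 6 masked probes 45.6%, and of 3221 genes with none 21.4%. Signal moved with the number of masked probes, with median levels of 8.06, 6.87 and 4.72. Within the brightest signal class the shares were 69.2%, 65.9% and 62.4%, and within the dimmest 32.4% (of 34 genes), 12.1% and 6.46%. What part masking has in the calls was not tested.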

How the data were processed

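Brain RNA of 18 mice was measured on Affymetrix MG-430 2.0 arrays, per the labels and the design text. The authors deposited 1 value per Ensembl gene and array on a log2 scale, with 0 missing values. Their normalization, background correction, software and filters do not appear in the sources used here, and the values were used as deposited. The log base was inferred from the range of values. The authors also deposited the positions of masked probes, which were counted per gene.

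All 18 arrays were fitted with 1 mean per species and age, 6 groups in all, with 12 residual degrees of freedom. The fit used limma 3.58.1 (lmFit, contrasts.fit, eBayes) in R 4.3.3. Its code was also run on simulated data with added changes of at least 2-fold, which does not bear on the smaller changes called here. P-values were two-sided and adjusted over 12346 genes, and 0.05 was the threshold. Musculus day 14 minus day 0 is the main contrast. Genes named are the 2 in each direction with the largest called change and no overlap, a rule for symbols that was shortened and applied to IDs. The members, lists and alternatives were chosen with earlier results of these data known. The promoter motif counts planned for gene lists need symbols and were not run. No batch is given in the sources used here. Same-numbered arrays of the ages had deviations that correlated with r of 0.11, -0.05 and 0.04, so replicate numbers were not taken as pairs. The number of arrays limits the precision.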

Additional observations from a re-analysis of the deposited data

Results flagged for a closer look

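ENSMUSG00000029510, the gene with the largest fall in musculus, differed between the species in its change from day 0 to day 14. The spretus change minus the musculus change was 1.64 on the log2 scale (limma, adjusted p = 0.0142), since the gene fell by 2.83 in spretus and fell by 4.47 in musculus. Its day 0 values did not overlap between the species, while at day 14 both species were in the dimmest signal class. A fit of the musculus and spretus arrays of those ages only gave an adjusted p of 0.0587 (limma). Groups of 3 arrays are too small for a test of single outlying arrays.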

How the results depend on the processing

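The counts of genes that rose, fell, rose at least 2-fold and fell at least 2-fold in musculus stayed within 1.5 times their values in every alternative read for them. These were only the arrays compared, quantile normalization, median centring, and no genes of the dimmest class by the mean of all 18 arrays. Others were no genes with 7 or more masked probes, a prior with trend and robust estimation, and the replicate number as a block. Each musculus array of days 0 and 14 was also left out in turn, but no day 56 array was. With 1 array left out, 2175 to 2296 genes rose and 2421 to 2593 fell, and 495 to 555 and 405 to 452 did so at least 2-fold. The replicate block gave 2411 rising and 2676 falling genes, 4992 of them called without it, and changed no call of the example genes. The called genes with overlap, described below, were not read in that fit. The balance of directions moved little, with 2452 rising and 2661 falling genes after median centring. The medians of the arrays compared were near equal before it, at 6.53 to 6.56. Centring therefore cannot show how the balance depends on the authors' own normalization. The 137 genes with a difference in change between the species were less stable. There were 62 with only the arrays compared and 83 without genes with 7 or more masked probes. Leaving out 1 array of either species at day 0 or 14 gave 63 to 204. With spretus newborns 1, 2 or 3 dropped the count was 78, 77 or 74, with spretus day 14 animals 1 or 2 dropped 64 or 63, and with musculus day 14 animal 3 dropped 74. The cause was not tested. The difference for ENSMUSG00000025789, not called, ranged from -0.185 to 0.0709 over the fits that dropped 1 array. It was above 0 in 3 of them: 0.0205 (musculus day 14 animal 1 dropped), 0.0625 (spretus newborn 2) and 0.0709 (spretus day 14 animal 3). That for ENSMUSG00000031425 was -1.08 and called (limma, adjusted p = 0.0023) without musculus day 0 replicate 1. Low signal limits how exactly changes of dim genes are sized.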

Other observations

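Of the 946 genes called with at least 2-fold changes in musculus, 4 had values that overlapped between the ages, each with an array far from the others of its age. These were chosen after their values were seen. The first pair had risen. One had values of 5.48, 8.76 and 8.82 at day 14, against 5.43, 5.58 and 5.66 at day 0, and the other had 5.62, 8.81 and 9.08 at day 14, against 5.42, 6.10 and 6.47 at day 0. In both, day 14 replicate 3 was the array at the newborn level. In spretus the same genes rose by 2.71 and 2.60 (limma, adjusted p = 0.000674 and 0.00167).

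The other pair had fallen. One had values of 5.53, 5.56 and 5.62 at day 14, against 4.99, 9.36 and 9.61 at day 0. The other had 4.71, 4.98 and 6.95 at day 14, against 5.18, 11.70 and 12.57 at day 0, a log2 change of -4.27 ± 1.53 (SE; limma, adjusted p = 0.0324). In both, day 0 replicate 2 was the low newborn, and in the second gene day 14 replicate 3 also stood above the others of its age. In spretus neither was called (adjusted p = 0.697 and 0.619), and 1 of the 3 spretus newborns stood high in each gene, at 7.26 and 10.69. Besides these, 3 genes had mean differences of at least 2-fold and were not called, with an SD of 1.20 to 1.80 in the age that varied more.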
